A study of Homo sapiens with 4 samples.

Results

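The genes described here are 6 human genes of DNA mismatch repair: MSH6, MSH3, PMS2, PMS1, MLH3 and EXO1. They were chosen by name, and each symbol was matched to 1 of the 60658 Ensembl gene identifiers in the data. RNA was sequenced from cells labelled HT29 and LIM1215, which are names of established lines from human colorectal carcinomas. Each line had 1 library of cells given a negative control siRNA and 1 library of cells given an siRNA against TMEM161A, named si2. Each of the 4 groups was therefore 1 library with 1 siRNA sequence, the spread between replicates is unknown throughout, and a comparison of 2 single libraries carries no test. TMEM161A encodes a multi-pass membrane protein. All 4 libraries were from transfected cells, and the labels give no passage and no time after transfection for any of them.

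Mismatch repair corrects the wrong bases and the small loops that DNA polymerases leave behind in newly copied DNA. MutS complexes find the error: MSH6 is the subunit that handles single mismatches and short loops, and MSH3 is the alternative subunit that handles larger loops. MutL complexes, whose alternative subunits are PMS2, PMS1 and MLH3, then act on the strand, and the exonuclease EXO1 removes the stretch that holds the error. Loss of the pathway leaves runs of a repeated base unstable, a state known as microsatellite instability. LIM1215 is known as a mismatch repair deficient line and HT29 as a proficient one. That status is background on the lines and was not measured by these libraries, and other genes of the pathway are not analysed here.

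The coding sequences of the members hold runs of 1 base of the kind the pathway keeps stable. Among canonical transcripts of GENCODE release 44 on GRCh38, all 6 members held a coding run of at least 7 identical bases, against 22.6% of 20046 coding genes and 41.9% of the 2373 coding genes whose coding length lay within the range of the members, 2538 to 4359 bases. Runs of at least 8 were found in 4 of the 6, against 5.72% of all coding genes and 11.9% of those of like length. The longest run of each of these 4 genes is shown because it names the stretch of each repair gene that is itself a repeat. Each line gives 30 bases of the reference genome, 5′ to 3′ on the strand of the gene, with the run in capitals.
MSH6: gccggaagataCCCCCCCCttcttagagct
MSH3: atgttagggacAAAAAAAAgggcaacattt
PMS2: gactggagaagAAAAAAAAgacgtgtccat
MLH3: agagaaagagAAAAAAAAAgaatctagcaa
The MSH6 stretch lies at chr2:47803490-47803519 on the plus strand in exon 5, with a run of 8 C. The MSH3 stretch lies at chr5:80675085-80675114 on the plus strand in exon 7, with a run of 8 A. The PMS2 stretch lies at chr7:5987515-5987544 on the minus strand in exon 11, with a run of 8 A. The MLH3 stretch lies at chr14:75047890-75047919 on the minus strand in exon 2, with a run of 9 A. PMS1 and EXO1 had longest runs of 7 bases. Gene expression values say nothing on the length of these runs in the cells sequenced.

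A second set of sequences lies at the gene starts. E2F factors switch on genes at the entry into S phase, and the letters TTTGGCGC, TTTCCCGC, TTTCGCGC and TTTGCCGC were searched on both strands in RefSeq promoter windows (GRCh38.p14) of 250 bases before to 50 bases after a start. All 6 members had a window. A match was found for MSH6, MSH3, PMS2 and EXO1 and for neither PMS1 nor MLH3. Counted by gene, that is 4 of 6 members, against 3.99% of the 27305 genes with a window and 9 of 12 S phase genes with a window. Stretches of EXO1, MSH6 and PMS2 are shown because these genes differ in how they changed, as described further on. Capitals mark the match.
EXO1: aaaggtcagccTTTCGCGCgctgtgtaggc
MSH6: ctccccccagaTTTCCCGCcagcaggagcc
PMS2: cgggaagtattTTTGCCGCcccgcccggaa
The EXO1 stretch is chr1:241848197-241848226, the MSH6 stretch chr2:47783137-47783166 and the PMS2 stretch chr7:6009131-6009160. Over all windows, 3.31% of 35116 held such a match. A match describes the letters of the window and not a site in use.

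Values are FPKM, the fragments of a gene corrected for its length and for the depth of the library. Comparisons between libraries use the log2 ratio of FPKM + 1, which understates the change of low genes, and a gene was called past 2-fold where that ratio was at least 1 in size. The 14803 identifiers with a mean of at least 1 FPKM over the 4 libraries were compared. All 6 members were among them, MSH3 only because of its level in LIM1215. The steps between low FPKM values put the depth at 18.1 to 21.5 fragments for each 1000 bases of a gene at 1 FPKM. Intervals below are exact 95% counting intervals from fragments estimated through the length of the canonical transcript, and they cover counting error only, not the spread between cultures. TMEM161A itself was at 42.6 FPKM with the control siRNA and 4.64 with its siRNA in the libraries labelled HT29. In LIM1215 it was at 39.1 and 7.61 FPKM. The siRNA libraries were thus at 10.9% and 19.5% of control.

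The labelled cell type was checked against 10 epithelial and colonic markers, and the HT29 libraries went against their label. CDX1 and CEACAM5 were listed at 0 in both, VIL1 was at most 0.0397 FPKM, and KRT20 and LGALS4 stayed under 1 FPKM, while EPCAM was at 168 and 154 FPKM and KRT8 at 1467 and 1624. In the LIM1215 libraries all 10 were present, with CDX1 at 88.4 and 132 FPKM and VIL1 at 192 and 261. All 10 were past 2-fold higher in LIM1215, with a median log2 ratio of 4.56 between the controls, where 12% of all genes were past 2-fold higher. CDX1, CEACAM5, VIL1, KRT20 and LGALS4 passed the filter on mean FPKM only because of their levels in LIM1215. The leukocyte genes PTPRC and CD3E were at 0 in every library, and endothelial markers stayed at or under 0.438 FPKM. The libraries concerned are called HT29-labelled from here on, and each comparison between the lines carries this limit.

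The members spanned a wide range of levels, and the order was not the same in the 4 libraries. In the HT29-labelled control, PMS1 was highest at 29.4 FPKM, followed by MSH6 at 19.7, EXO1 at 13.6, PMS2 at 11.2, MLH3 at 6.26 and MSH3 at 0.664. In the LIM1215 control, MSH6 led at 27.4 FPKM, followed by PMS1 at 22.3, EXO1 at 21.2, PMS2 at 9.21, MLH3 at 8.30 and MSH3 at 3.77. MSH3 was thus lowest in both, and it was also lowest in both siRNA libraries. Neighbours in the order had separate counting intervals in the HT29-labelled control. In the LIM1215 control those of PMS1 and EXO1 overlapped, as did those of PMS2 and MLH3. With the siRNA, the order in the HT29-labelled library was PMS1, MSH6, MLH3, PMS2, EXO1 and MSH3, and the intervals of MLH3 and PMS2 overlapped. The order in the LIM1215 siRNA library was MSH6, MLH3, PMS1, EXO1, PMS2 and MSH3, with overlap of MLH3 and PMS1. In both lines MLH3 therefore stood higher, and EXO1 lower, among the members in the siRNA library than in the control.

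**Figure D1:**
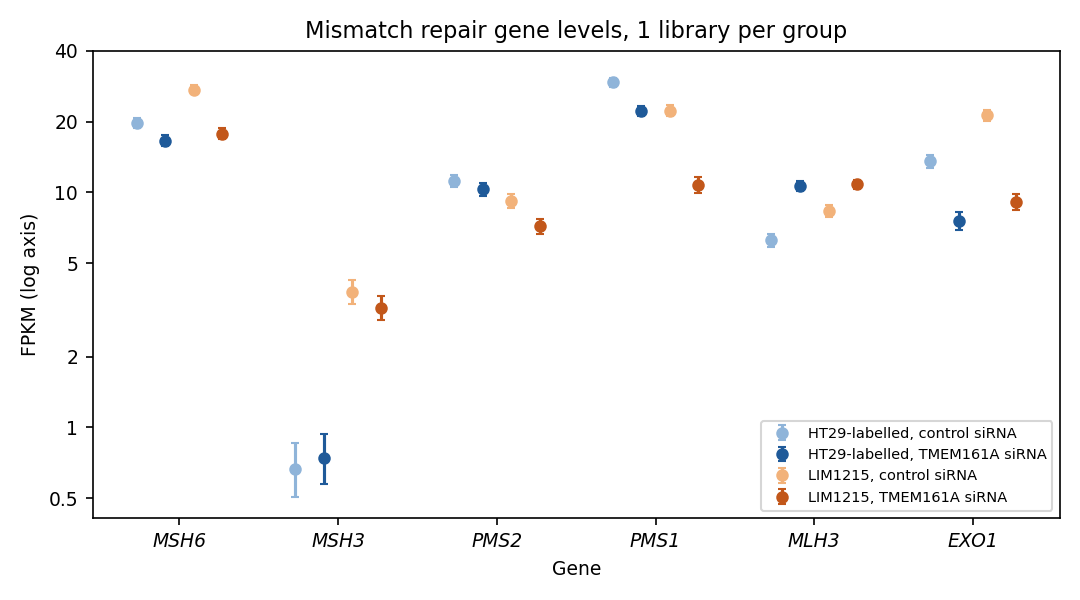
FPKM (log axis) of the 6 mismatch repair genes in the 4 libraries, 1 point per library, with bars for the 95% counting interval. MSH3 lies under 1 FPKM in both HT29-labelled libraries and over 3 FPKM in both LIM1215 libraries.

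With the TMEM161A siRNA, EXO1 stood furthest below its control in both lines and MLH3 stood above it in both. The log2 ratio was below 0 for 4 of the 6 members in the HT29-labelled libraries and for 5 of 6 in LIM1215. In the HT29-labelled pair 0 members were past 2-fold, against 3.8% of all genes compared, and in LIM1215 only EXO1 was, against 3.46% of all genes in either direction and 1.78% lower. The median log2 ratio of the members was -0.17 in the HT29-labelled pair and -0.46 in LIM1215, where the medians of all genes compared were 0.04 and 0.02. At a lower threshold of 1.5-fold, the HT29-labelled pair had MLH3 higher and EXO1 lower, against 14.8% of all genes. LIM1215 had EXO1, PMS1 and MSH6 lower, against 12.8% of all genes.

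MSH6, the mismatch-binding partner for single wrong bases (ENSG00000116062, chr2:47695530-47810063, plus strand), was at 19.7 FPKM in the HT29-labelled control and 16.6 with the siRNA. In LIM1215 it was at 27.4 and 17.7 FPKM. The siRNA libraries were thus the lower ones in both lines, at 84.1% of control (interval 78.4 to 90.3) in the HT29-labelled pair and 64.9% (60.6 to 69.4) in LIM1215. The log2 ratios were -0.24 and -0.60, neither past 2-fold. MSH6 overlaps FBXO11, on the opposite strand, over 20748 bases in the annotation, and whether the counting used strand is not given in the sources used here.

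MSH3, the partner for larger loops (ENSG00000113318, chr5:80654652-80876815, plus strand), was at 0.664 FPKM in the HT29-labelled control (interval 0.507 to 0.855) and 0.739 with the siRNA (0.573 to 0.938). It was at 3.77 FPKM in the LIM1215 control and 3.22 with the siRNA. These levels rested on about 59.8 and 67.5 fragments in the HT29-labelled libraries and 290 and 277 in LIM1215. The siRNA library stood at 111% of control (77.4 to 160) in the HT29-labelled pair and at 85.5% (72.3 to 101) in LIM1215. Both intervals include equal levels, so no change of MSH3 with the siRNA was detectable at this depth in either line. Set against MSH6 in the same library, MSH3 had an FPKM ratio of 0.0337 in the HT29-labelled control and 0.138 in the LIM1215 control. With the siRNA the ratio was 0.0446 and 0.182.

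PMS2, the subunit of the main MutL nuclease in mismatch repair (ENSG00000122512, chr7:5970925-6009130, minus strand), was at 11.2 and 10.3 FPKM in the HT29-labelled control and siRNA libraries and at 9.21 and 7.18 in LIM1215. The siRNA library was at 92.0% of control (84.6 to 100) in the HT29-labelled pair and 78.0% (70.4 to 86.4) in LIM1215. The log2 ratios were -0.11 and -0.32. PMS2 has near-identical copies in the genome, and how fragments shared with them were assigned is not given in the sources used here, so its level is uncertain. Of 15 annotated genes whose symbols begin with PMS2 and that are not PMS2 itself, 5 passed the filter. PMS2CL, the copy on the same chromosome arm, was at 9.91 and 10.9 FPKM in the HT29-labelled libraries and 5.70 and 6.64 in LIM1215. Its siRNA libraries were at 110% and 117% of control with intervals of 93.6 to 130 and 92.8 to 147. PMS2P3 was the only one of the 5 past 2-fold, at 3.52 FPKM in the LIM1215 control and 8.80 with the siRNA, a log2 ratio of 1.12.

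PMS1, a MutL subunit whose part in repair is minor in model systems (ENSG00000064933, chr2:189784085-189877629, plus strand), was at 29.4 FPKM in the HT29-labelled control and 22.2 with the siRNA. In LIM1215 it was at 22.3 and 10.8 FPKM. The siRNA library was at 75.4% of control (70.3 to 80.8) in the HT29-labelled pair and 48.3% (43.9 to 53.3) in LIM1215. The LIM1215 log2 ratio of -0.98 was just short of the 2-fold threshold on the FPKM + 1 scale, and it passed with a pseudocount of 0.1 or after centring on the median of all genes. It ranked 280 from the lowest of all genes compared, so that 1.89% of them had a ratio as low or lower.

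MLH3, the MutL nuclease subunit best known for crossovers in meiosis (ENSG00000119684, chr14:75013769-75051532, minus strand), was at 6.26 FPKM in the HT29-labelled control and 10.6 with the siRNA. In LIM1215 it was at 8.30 and 10.8 FPKM. It was the only member whose siRNA library was the higher one beyond counting error, at 170% of control (157 to 184) in the HT29-labelled pair and 130% (121 to 140) in LIM1215. The log2 ratios were 0.68 and 0.34, and 5.63% and 17.2% of all genes compared had ratios as high. Neither was past 2-fold.

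EXO1, the exonuclease that digests the strand with the error (ENSG00000174371, chr1:241847967-241895148, plus strand), was at 13.6 FPKM in the HT29-labelled control and 7.54 with the siRNA. In LIM1215 it was at 21.2 and 9.11 FPKM. The siRNA library was at 55.5% of control (49.8 to 61.9) in the HT29-labelled pair. In LIM1215 EXO1 fell to 42.9% of control (38.8 to 47.3), a log2 ratio of -1.14 that 1.28% of all genes equalled or passed downwards. The HT29-labelled log2 ratio was -0.77, with 3.88% of genes as low. With a pseudocount of 5 the LIM1215 ratio was -0.90, so the call there depended on that setting. In bulk RNA, fewer cells in S phase and less EXO1 RNA per cell cannot be told apart.

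**Figure D2:**
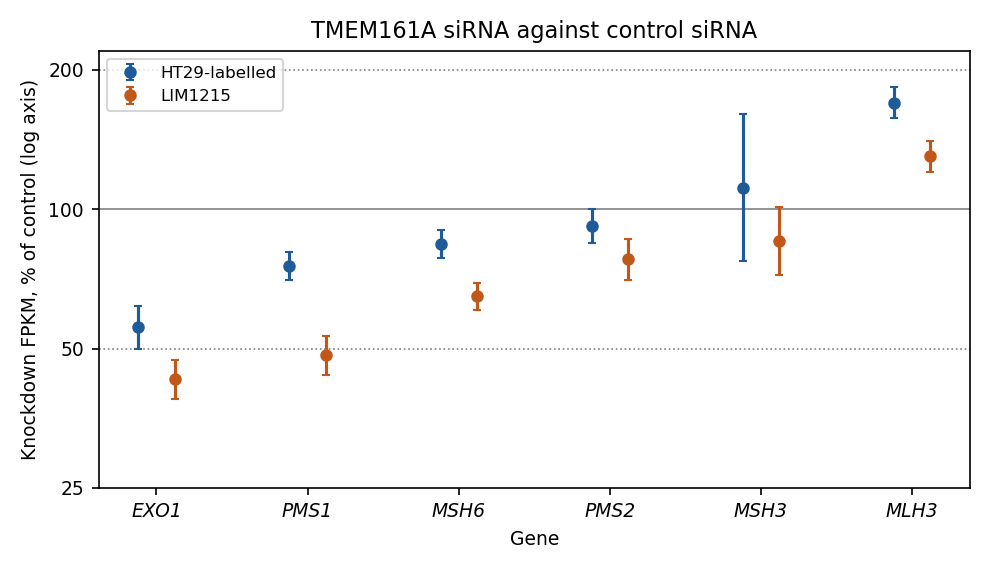
FPKM with the TMEM161A siRNA as a percentage of the control siRNA library (log axis) for each member in each line, with 95% counting intervals. EXO1 is at 55.5% and 42.9%, MLH3 at 170% and 130%, and the LIM1215 point is the lower one for each of the 6 genes.

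The change with the siRNA was lower in LIM1215 than in the HT29-labelled pair for all 6 members, whereas 52.3% of all genes compared were lower there. The differences of the log2 ratios, LIM1215 minus HT29-labelled, ran from -0.59 for PMS1 to -0.21 for PMS2, with a median of -0.35 against -0.02 over all genes. The counting intervals of the 2 lines were separate for MSH6, PMS1, MLH3 and EXO1 and overlapped for PMS2 and MSH3. With 1 library per group this difference between the lines has no test.

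A fit over all 4 libraries, with a term for the line and a term for the siRNA, was added after the values had been seen. It takes the 2 lines as the repeats of the siRNA comparison and leaves 1 residual degree of freedom, from how far the lines differ in their change. To that, limma adds a spread shared over all genes compared, which counts as 6.06 prior degrees of freedom. Each SE and adjusted p of this fit therefore rests mostly on the spread of other genes, not on that of the gene itself. By limma with Benjamini-Hochberg adjustment over all genes compared, EXO1 fell with the siRNA, with a log2 ratio of -0.95 (SE 0.17) and an adjusted p of 0.0442, lower in 2 of 2 lines. The limma adjusted p of EXO1 was between 0.0093 and 0.0769 over other pseudocounts, a stricter filter and other scalings, so the call depended on these settings. The other 5 members did not pass: limma gave PMS1 -0.69 (adjusted p 0.101), MLH3 0.51 (0.182), MSH6 -0.42 (0.202), PMS2 -0.21 (0.527) and MSH3 -0.06 (0.934). Of all genes compared, 1.95% passed.

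Relative to the other MutL subunits, MLH3 stood higher in the siRNA library of both lines. The FPKM ratio of MLH3 to PMS2 was 0.559 in the HT29-labelled control (interval 0.513 to 0.609) and 1.03 with the siRNA (0.957 to 1.12). In LIM1215 it was 0.902 (0.824 to 0.988) and 1.504 (1.38 to 1.64). The ratio is higher in the siRNA library of each line, with separate intervals, and scaling of the library cancels within it. The ratio of MLH3 to PMS1 was 0.213 and 0.480 in the HT29-labelled libraries and 0.373 and 1.004 in LIM1215. PMS1 was at 2.63 and 2.15 times PMS2 in the HT29-labelled libraries and at 2.42 and 1.498 times in LIM1215. EXO1 relative to the sliding clamp PCNA, which guides repair to new DNA, was 0.0806 and 0.0681 in the HT29-labelled libraries and 0.136 and 0.0733 in LIM1215. The ratio was thus highest in the LIM1215 control, with a counting interval apart from the other 3.

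**Figure D3:**
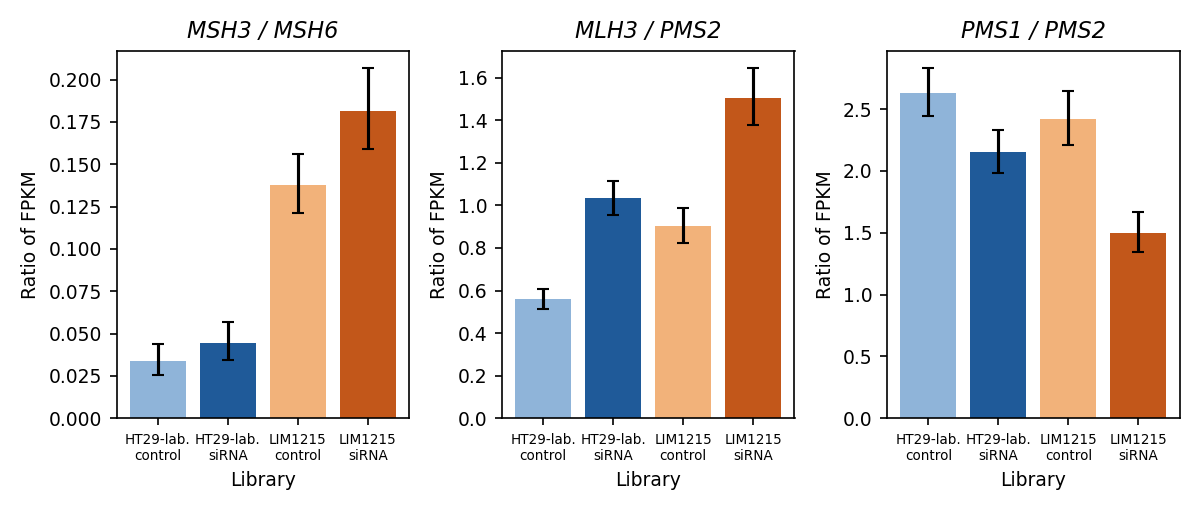
FPKM ratios between pairs of genes within each of the 4 libraries, with 95% counting intervals, on axes that start at 0. The MLH3 to PMS2 ratio is higher in the siRNA library of each line, 1.03 against 0.559 and 1.504 against 0.902.

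Between the control libraries, MSH3 differed most among the members. It was 5.68 times as high in LIM1215 as in the HT29-labelled control (interval 4.29 to 7.63), a log2 ratio of 1.52 on the FPKM + 1 scale, and 7.05% of all genes compared had a ratio as high. EXO1 was 1.56 times as high (1.44 to 1.70), MSH6 1.39 times (1.30 to 1.48) and MLH3 1.33 times. PMS2 was at 82.3% of the HT29-labelled control and PMS1 at 75.7%. One member, MSH3, was past 2-fold, against 19.4% of all genes in either direction and 12% higher in LIM1215. At 1.5-fold MSH3 and EXO1 were higher, against 38% of all genes. MSH3 passed the filter on mean FPKM only because of its level in LIM1215, so its rank and its call are not independent of that filter. The MSH3 call ended with a pseudocount of 5, where the ratio was 0.63, and a filter at a mean of 5 FPKM removed the gene. The colonic markers differed between the same libraries, and their part in these values was not tested.

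The siRNA libraries share their lines with the controls, and their values stand beside them here. MSH3 was 4.36 times as high in LIM1215 (interval 3.33 to 5.78), a log2 ratio of 1.28, and was again past 2-fold, against 21.2% of all genes in either direction and 12.7% higher. PMS1 was at 48.6% of the HT29-labelled siRNA library (44.2 to 53.4), with a log2 ratio of -0.98, and PMS2 at 69.8% (63.4 to 76.8). At 1.5-fold MSH3 was higher and PMS1 lower, against 39% of all genes. EXO1 was 1.21 times as high (1.07 to 1.36). MSH6 at 1.07 times (0.995 to 1.15) and MLH3 at 1.02 times (0.949 to 1.09) had intervals that include equal levels, and both turned lower in LIM1215 when the libraries were scaled to a common sum or to their upper quartile. Between the controls the first of these scalings moved the median of all genes by -0.16 and the second by -0.13. Of the genes past 2-fold between the controls, 61.7% were higher in LIM1215 as deposited, 50.2% after scaling to a common sum and 52.0% after scaling to the upper quartile. MSH3, EXO1, MSH6 and MLH3 were still higher in the LIM1215 control under both. In the fit over all 4 libraries, limma called MSH3 higher in LIM1215, with a log2 ratio of 1.40 (SE 0.27, adjusted p 0.0060), and PMS1 lower, with -0.68 (SE 0.17, adjusted p 0.0197), where 39.7% of all genes passed. EXO1 (0.43, limma adjusted p 0.0812), MSH6, PMS2 and MLH3 did not pass. For this term the repeats were the control and siRNA libraries of each line. The SE and adjusted p therefore do not measure the spread between lines or between cultures. MSH3 entered the fit only because of its level in LIM1215.

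PMS1 and PMS2 were set beside the gene that starts next to each on the opposite strand. ORMDL1, a regulator of sphingolipid synthesis (chr2:189770267-189784364, minus strand), starts 111 bases from PMS1 and overlaps it by 280 bases. It was at 30.8 and 17.2 FPKM in the HT29-labelled libraries and 33.0 and 23.3 in LIM1215, which is 55.7% (50.7 to 61.0) and 70.6% (64.7 to 77.0) of control. Both genes of the pair were thus lower with the siRNA, PMS1 further in LIM1215 and ORMDL1 further in the HT29-labelled pair. AIMP2, a scaffold of the tRNA synthetase complex (chr7:6009255-6023834, plus strand), starts 223 bases from PMS2 with no overlap. It was at 39.7 and 43.98 FPKM in the HT29-labelled libraries and 49.6 and 50.2 in LIM1215, or 111% (101 to 122) and 101% (92.5 to 111) of control. The match printed above for PMS2 also lies in the AIMP2 window.

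**Figure D4:**
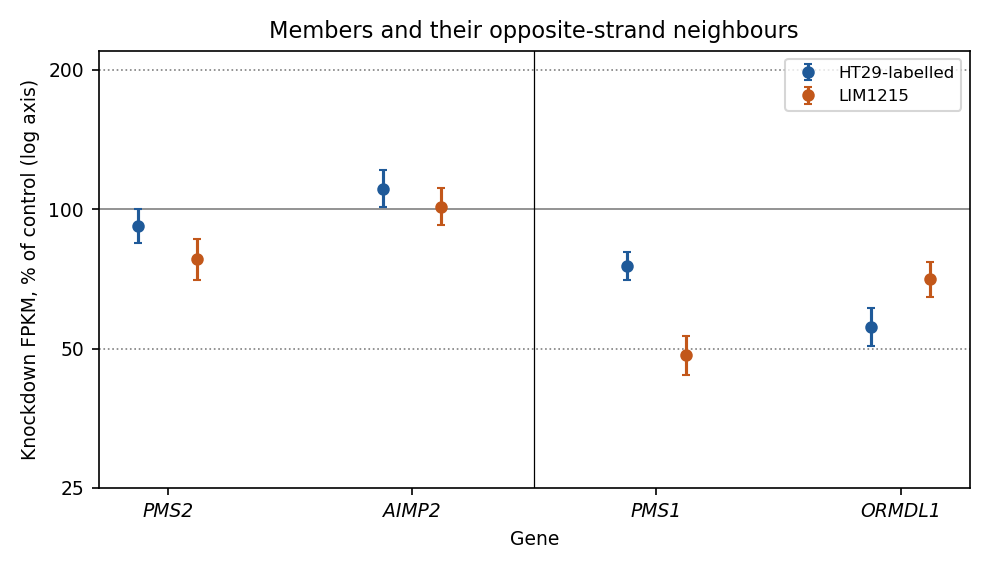
FPKM with the TMEM161A siRNA as a percentage of control (log axis) for PMS1 and PMS2 and for the gene that starts beside each on the opposite strand, with 95% counting intervals. ORMDL1 is at 55.7% and 70.6% of control, and AIMP2 at 111% and 101%.

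The partners of excision and resynthesis were mostly below control. Of 15 genes for the clamp, its loader, the single-strand binding protein, polymerase delta, the ligase and HMGB1, 12 had a log2 ratio below 0 in the HT29-labelled pair and 14 in LIM1215. Their medians were -0.30 and -0.40, and 0 were past 2-fold in either line. RFC3, a subunit of the loader that opens the clamp, was at 16.3 and 9.05 FPKM in the HT29-labelled libraries and 18.2 and 9.52 in LIM1215, with log2 ratios of -0.79 and -0.87. RFC2, of the same loader, had -0.51 and -0.85. PCNA was at 168 and 111 FPKM and at 156 and 124, with -0.60 and -0.32. POLD4, a small polymerase subunit, had 0.25 and 0.17, the one gene of the list above control in both lines. POLD2 had 0.30 and -0.03.

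S phase genes listed as E2F targets were lower throughout. All 15 had a log2 ratio below 0 in each line, with medians of -0.62 and -0.67. Past 2-fold lower were 3 of them in the HT29-labelled pair and 2 in LIM1215, against 288 and 263 of the 14803 genes compared. CDC6, which loads the replicative helicase, fell by 1.42 and by 1.49 on the log2 scale. Over all genes compared, 44.4% and 46.4% had a ratio below 0. Of the members, EXO1 was below the median of this list in both lines, and PMS1 in LIM1215. Of the other 3 members with a match, MSH6 and PMS2 were above the list's medians and MSH3 was not detectably changed. PMS1 had no match in its window. The list was drawn up with earlier results of these libraries known and is no independent evidence of its direction.

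Other repair routes are given beside these values. Base excision repair, which removes damaged single bases, had 10 of 20 genes below 0 in the HT29-labelled pair and 15 of 20 in LIM1215, with medians of -0.0033 and -0.15. Its lowest gene in both was the glycosylase NEIL3, at -0.88 and -0.93. Nucleotide excision repair, which removes bulky lesions, had 8 and 10 of 20 below 0 and medians of 0.09 and -0.01. ERCC1, part of its 5′ nuclease, had 0.62 and 0.20, and the damage verifier XPA had 0.10 and -0.81. No gene of either list was past 2-fold with the siRNA on the FPKM + 1 scale. Without the added 1, NEIL3 was at 48.4% of control in the HT29-labelled pair and 41.8% in LIM1215. GTF2H2, of the second list, was at 5.35 FPKM in the LIM1215 control and 2.67 with the siRNA. The differences between lists were not tested.

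**Figure D5:**
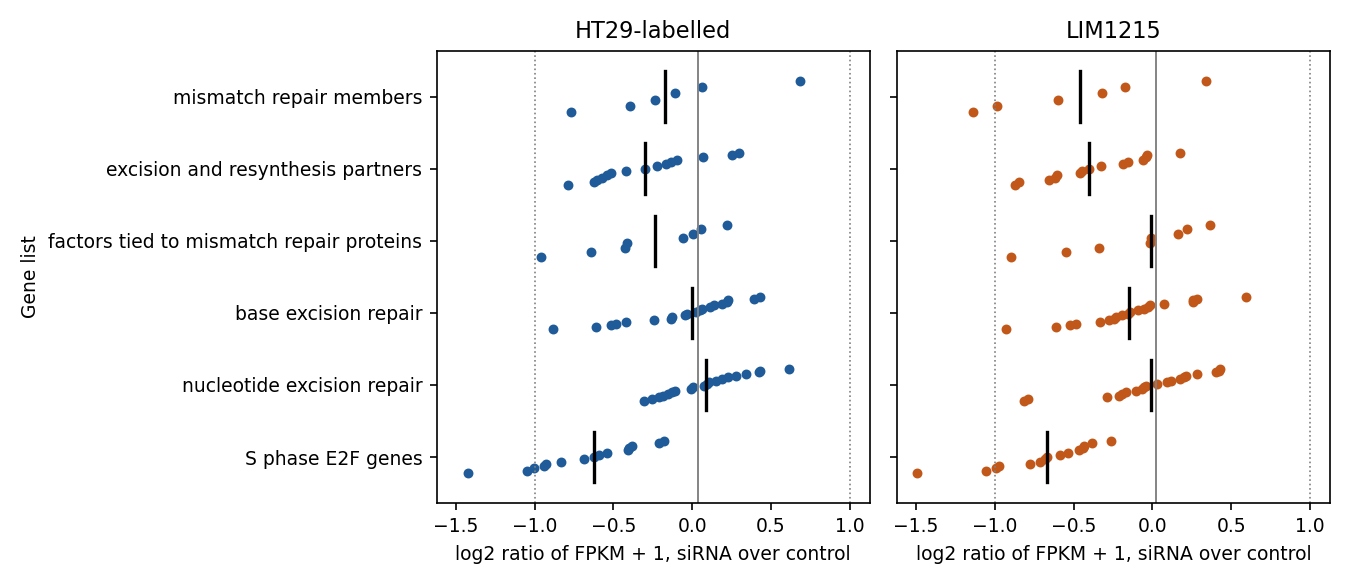
Log2 ratio of FPKM + 1, siRNA over control, for each gene of each list in the HT29-labelled and LIM1215 pairs, with a mark at each list's median. The 15 S phase genes all lie below 0 in both panels, and the medians of the mismatch repair members are -0.17 and -0.46.

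Among 8 factors that bind or work with mismatch repair proteins, 5 were below control in each line, with medians of -0.24 and -0.01. On the FPKM + 1 scale 0 were past 2-fold. MCM8, a helicase subunit used in recombination, was at 10.3 and 4.81 FPKM in the HT29-labelled libraries and 9.95 and 4.87 in LIM1215, with log2 ratios of -0.96 and -0.90. In the annotation it overlaps another coding gene on the same strand over 48029 bases, so its level is uncertain. MBD4, a glycosylase for thymine opposite guanine, was at 8.53 and 5.11 FPKM and at 14.3 and 18.7, with log2 ratios of -0.64 and 0.36. It stood below control in one line and above it in the other, and it overlaps IFT122 on the opposite strand. WRN, the helicase that cells with microsatellite instability are known to depend on, was at 8.82 and 6.37 FPKM in the HT29-labelled libraries and 3.9995 and 2.95 in LIM1215. It was thus lower in both LIM1215 libraries, with a log2 ratio of -0.97 between the controls, and lower with the siRNA in each line, at 72.2% and 73.7% of control. The meiotic MutS homologue MSH4 stayed under 1 FPKM in all 4 libraries and was not compared. MSH5 was at 57.0 and 40.5 FPKM and at 38.0 and 35.5, and it overlaps the read-through gene MSH5-SAPCD1, which makes its level uncertain.

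Genes with coding repeats that are often shifted in tumours with microsatellite instability were also listed, 18 of 19 passing the filter. Of the 19, 18 held a coding run of at least 7 bases in the reference. Their median log2 ratio between the controls was 0.06, against 0.05 for all genes. Between the controls 3 of the 18 were past 2-fold, a share near the 19.4% of all genes. Those higher in LIM1215 were IGF2R, the receptor that clears IGF2, at 14.03 and 72.3 FPKM, and CASP5, an inflammatory caspase listed at 0 in the HT29-labelled control and at 4.03 in LIM1215. CASP5 passed the filter only because of its level in LIM1215. The one lower was TCF7L2, a transcription factor of the Wnt pathway, at 85.3 and 35.8 FPKM. TGFBR2, the growth-inhibiting receptor whose A run is a classic target, was at 18.0 and 9.40 FPKM in the controls and at 20.1 and 9.57 in the siRNA libraries.

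The coding genes whose pattern lay nearest to each member were found by the Euclidean distance of centred log2(FPKM + 1) over the 4 libraries, among 12295 coding genes. They were TTC9C and LCMT1 for MSH6 (distances 0.0267 and 0.0320) and TTC28 and NBL1 for MSH3 (0.0445 and 0.0572). PPP1R12A was among the 2 nearest to PMS2 (0.0406). For MLH3 they were GEM and ZNF593OS (0.0263 and 0.0462). AREG and ITPRIPL2 were nearest to PMS1 (0.116 and 0.142), and CENPI and JAK1 to EXO1 (0.118 and 0.132). Within a distance of 0.1 lay 41 genes for PMS2, 21 for MLH3, 9 for MSH6 and 6 for MSH3, but 0 for PMS1 and EXO1. A distance over 4 libraries is a description of these libraries. On the FPKM + 1 scale a small distance does not mean a like fold where a gene is low. Between the HT29-labelled and LIM1215 controls MSH3 was at 0.664 and 3.77 FPKM, TTC28 at 0.186 and 2.48, and NBL1 at 38.4 and 108.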

How the data were processed

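The 4 libraries are of poly(A)-selected RNA made with a stranded kit, per the labels' protocols. The deposited values are FPKM per Ensembl gene identifier, which the authors derived with HISAT2 2.1.0, SAMtools 1.20, Cufflinks 2.2.1 and Cuffdiff on GRCh38, per the submitters' processing notes. The annotation, the strand setting and any filter are not given in the sources used here. Because FPKM is a share of the library, a rise in abundant genes lowers the rest.

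Symbols, positions and coding sequences came from GENCODE release 44, matched for 56550 of the identifiers, and promoter windows from RefSeq. Log2 ratios used a pseudocount of 1 and a mean FPKM of at least 1. Depth was estimated from the steps between low values of 16863 single-transcript genes, of which 77.2% to 79.0% lay within 0.03 of a whole fragment, against 6% for values without steps. Counting intervals were exact Clopper-Pearson for ratios and exact Poisson for levels, at 95%. Single libraries were compared without a test, since each group was 1 library. A fit of line and siRNA over the 4 libraries used limma 3.58.1 in R 4.3.3 on log2(FPKM + 1) with a mean-variance trend, with calls at an adjusted p under 0.05. The line is the block, since both libraries of a line carry the same cell line label, and this fit was added after the data were seen. The scripts were tested on simulated data.

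Some items are not reported here. The members and lists were chosen with earlier results of these data known. All members are named, with TMEM161A, the neighbours starting within 1000 bases, the 2 nearest patterns and, from each list, at most the 4 genes with the largest log2 ratios or genes named by role. TGFBR2, WRN, PCNA, CDC6 and PMS2CL are named by role. Alternatives were other pseudocounts, filters, scalings, thresholds and protein-coding genes only. Python 3.11.15, pandas 2.3.3, numpy 2.4.6, scipy 1.17.1 and matplotlib 3.10.9 were used.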

Additional observations from a re-analysis of the deposited data

Results flagged for a closer look

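For some values the siRNA library lay on opposite sides of its control in the 2 lines, and the difference between the lines was not tested, since each group was 1 library. MSH3 had a log2 ratio of 0.064 in the HT29-labelled pair and -0.18 in LIM1215, and both counting intervals include equal levels. MBD4 had -0.64 and 0.36, with separate intervals. POLD2 had 0.30 and -0.035, and its LIM1215 counting interval of 94.1% to 101% of control includes equal levels. IGF2R had 0.47 and -0.21. The median of the nucleotide excision repair genes was 0.085 in the HT29-labelled pair and -0.0064 in LIM1215.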

How the results depend on the processing

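Leaving out a library leaves no residual degree of freedom, so no such value exists. In the added limma fit with the line as replicate block, the members called with the siRNA were 1 as reported, 0 without the block (where 0 genes of all passed and 370 had an unadjusted p under 0.05), 0 with a pseudocount of 0.1 or 5 or a common sum, and 2 with a mean FPKM of at least 5. All genes called were 288, and 50, 207, 49 and 802 in those 4 settings. Of the members, 2 were called between the lines, and 1 with a mean FPKM of at least 5, which removes MSH3. For the lines the repeats were the control and siRNA libraries of each line, which give no spread between cultures. Of the log2 ratios of single members under the alternatives, 162 were classed as the same as reported, 21 as moved and 5 turned sign. The limit between same and moved is not the interval of the fold printed above. Other filters and the limit to protein-coding genes cannot change the ratio of a single gene. Those settings were therefore classed as the same by construction, and the 162 include them. The number of members past 2-fold with the siRNA in LIM1215 was 1 as reported, 2 with a pseudocount of 0.1 or after centring on the median of all genes, 0 with a pseudocount of 5 and 3 at 1.5-fold. In the HT29-labelled pair it was 0, and 2 at 1.5-fold. Between the controls it was 1 as reported, 0 with a pseudocount of 5 or a mean FPKM of at least 5, which removes MSH3, and 2 at 1.5-fold. Between the siRNA libraries it was 1 as reported, 0 with a pseudocount of 5 or a mean FPKM of at least 5, and 2 with a pseudocount of 0.1, after centring, with either scaling or at 1.5-fold. The median of the members between the controls was 0.41, 0.24 with FPKM scaled to a common sum and 0.26 with scaling by the upper quartile. Between the siRNA libraries it was 0.06 and turned to -0.043 and -0.065. There MLH3 was at 0.02 and turned to -0.0099 after centring, -0.078 with the common sum and -0.10 with the upper quartile, and MSH6 went from 0.09 to -0.0077 and -0.031. Scaling moves all genes of a library together. Depth limits MSH3 in the HT29-labelled libraries, where about 59.8 and 67.5 fragments stand behind it.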
